A study of Homo sapiens with 26 samples.

Results

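The list examined here holds 824 gene bodies that the authors deposited as full-length RNA targets of EZH2 in T98G cells. All 824 rows were taken, out of 5848 rows in the 6 deposited lists of the series. T98G is a glioblastoma cell line. The list is named under 1 EZH2 iCLIP library from T98G, and 6 libraries of fragmented, rRNA-depleted long RNA from the same line are its relatives: 2 EZH2 immunoprecipitates (RIP), 2 IgG immunoprecipitates and 2 inputs. RIP sequences the RNA that comes down with a protein, and iCLIP does so after crosslinking RNA to protein with ultraviolet light. Cells of all these libraries were untreated. The labels give an Active Motif EZH2 antibody for the RIP, that antibody together with one from Abcam for the iCLIP, and no antibody for the input. They describe a digitonin and Dounce step with mild sonication before the RIP, which the iCLIP lysate did not have. Which of the 7 libraries entered the list is not stated, nor is the threshold. The list gives no read count, fold change or p-value, so depth per library and the spread between replicates are unknown, and no comparison below carries a test over samples. The series is titled for artifacts that arise when reverse transcription primers anneal to the wrong place.

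EZH2 is the catalytic subunit of Polycomb repressive complex 2 (PRC2), which methylates lysine 27 of histone H3 at repressed genes. PRC2 is known to bind RNA of many sequences, with a preference for guanine-rich RNA that can fold into G-quadruplexes. In glioblastoma EZH2 is often highly expressed and has been studied as a drug target.

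Of the 824 rows, 759 carry 1 gene name and 65 span several named genes of 1 strand. The value column equals the number of names in all 824 rows. There were 926 distinct names, and 906 of 927 name entries matched an overlapping gene of GENCODE release 44 on hg19 (GRCh37) coordinates, 861 by current symbol and 45 by an older one. The remaining 21 entries found no match, which left 4 rows with no matched gene. These are 905 genes, here called listed genes, and all are protein-coding. They make up 4.49% of the 20163 annotated protein-coding genes, which is the share to hold each group against. By position 818 rows lay over a protein-coding gene. FLJ27365 lay over MIRLET7BHG, the host of let-7 microRNAs, so its body is that of a long noncoding RNA. The 8 glioblastoma markers checked (GFAP, VIM, NES, CD44, SOX2, SOX9, OLIG2 and S100B) were absent from the list, as were 6 erythroid markers. A target list does not measure expression, so this leaves the identity of the cells unchecked.

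The sequences below are from the hg19 reference and show what the RNA of members looks like at the points the results turn on. The first set holds guanine tracts, defined as 4 runs of at least 3 G with spacers of 1 to 7 bases, in the coding sequence of 3 of the 4 listed genes with the densest exonic matches (NHLRC4, COL6A1, a collagen VI chain, and TSPAN4, a tetraspanin). NHLRC4 shares its row with PIGQ, and the list does not say which of them gave the signal. Each tract is written 5′ to 3′ on the RNA strand, with the G runs in capitals.
NHLRC4, chr16:618073-618097, plus strand: GGGtGGGcccaGGGcctgatGGGGG
COL6A1, chr21:47411942-47411970, plus strand: GGGGaggcGGGGagaccaGGGagctcGGG
COL6A1, chr21:47418312-47418341, plus strand: GGGtatccGGGcaacaGGGGcgctcccGGG
TSPAN4, chr11:850140-850168, plus strand: GGGcgcgcGGGcggcGGGGacgccGGGGG

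The second set shows T98G small RNA peaks inside members where the genome itself reads AGATCGG, a sequence found at the start of a common Illumina 3′ adapter. The T98G small RNA list gives exons with a signed value, read here as the distance from the middle of the exon to a peak, and 13 peaks inside members had AGATCGG starting 11 to 15 bases downstream of the peak. Of those within coding sequence 5 are shown, each from 20 bases before the peak to 30 after it, with AGATCGG in capitals. ATM is the kinase of the double-strand break response, CAD the trifunctional enzyme that starts pyrimidine synthesis, HTT huntingtin, TRAF7 a ubiquitin ligase and AMPD2 an AMP deaminase.
ATM, chr11:108098525-108098574, plus strand: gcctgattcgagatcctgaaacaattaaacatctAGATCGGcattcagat
CAD, chr2:27448030-27448079, plus strand: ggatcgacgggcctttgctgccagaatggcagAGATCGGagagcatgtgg
HTT, chr4:3127296-3127345, plus strand: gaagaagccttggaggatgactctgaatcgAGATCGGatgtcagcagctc
TRAF7, chr16:2222224-2222273, plus strand: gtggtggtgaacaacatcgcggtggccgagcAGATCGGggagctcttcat
AMPD2, chr1:110172858-110172907, plus strand: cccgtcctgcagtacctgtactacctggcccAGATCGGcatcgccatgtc

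The last set gives coding exons of members that the small RNA lists of T98G, U87MG and K562 all call. U87MG is a second glioblastoma line and K562 a chronic myeloid leukaemia line. Only exons shorter than 150 bases are shown, with every AGAT in capitals, wherever it falls in the exon. An AGAT started 11 to 15 bases downstream of the T98G peak in SBNO1 and SNRNP200, but not in IARS or MCM7. IARS is the isoleucyl-tRNA synthetase, MCM7 a subunit of the replicative helicase and SNRNP200 the helicase that unwinds U4 from U6 snRNA.
IARS, chr9:95033815-95033937, minus strand: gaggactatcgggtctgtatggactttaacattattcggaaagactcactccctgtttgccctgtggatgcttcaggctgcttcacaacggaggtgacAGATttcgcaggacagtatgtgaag
MCM7, chr7:99695457-99695571, minus strand: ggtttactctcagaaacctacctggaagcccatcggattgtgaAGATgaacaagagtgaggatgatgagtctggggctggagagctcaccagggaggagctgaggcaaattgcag
SBNO1, chr12:123801768-123801903, minus strand: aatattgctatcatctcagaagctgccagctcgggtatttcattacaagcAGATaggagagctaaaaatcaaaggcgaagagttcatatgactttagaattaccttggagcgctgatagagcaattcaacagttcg
SNRNP200, chr2:96953177-96953295, minus strand: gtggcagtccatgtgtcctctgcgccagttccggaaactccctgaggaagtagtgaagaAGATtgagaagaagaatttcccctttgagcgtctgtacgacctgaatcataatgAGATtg

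The members were compact, GC-rich genes with long coding sequences. Their median width was 24206 bp (95% interval of the median 21674 to 26184, n = 824), and the middle 50% lay between 12819 and 43534 bp. Listed genes had a median annotated length of 21076 bp against 27219 bp over all protein-coding genes. Those of rows with 1 name had 24057 bp (21626 to 26111). The joined exon length of listed genes was longer, at 6196 against 4388 bp. Their canonical transcripts had a median of 14 exons against 8, and 2134.5 against 1269 coding bases. Exons thus took up a median of 29.7% of the body of a listed gene and 16.7% of the body of any protein-coding gene. Both ends of the width range were thin: 142 members (17.2%) were under 10 kb against 26.1% of protein-coding genes, and 74 (8.98%) were over 100 kb against 18.2%.

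**Figure D1:**
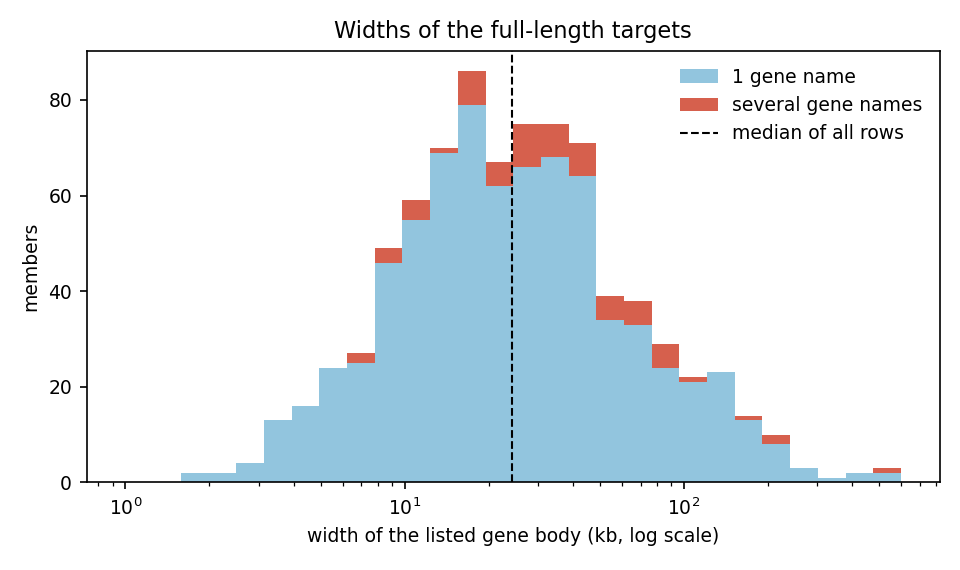
Widths of the 824 listed gene bodies in kb on a log scale, stacked by whether the row carries 1 gene name (759) or several (65). The dashed line is the median of 24206 bp, and most members lie between 10 and 100 kb.

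The shortest member was EXOSC6 (1700 bp), a subunit of the RNA exosome. TMEM158 (1813 bp), RP11-680G10.1 (1987 bp) and DDIT4 (2117 bp), a stress-induced inhibitor of mTORC1, followed it. HSPA1B (2520 bp), an Hsp70 gene with a near-identical neighbour, DCXR (2597 bp), JMJD8 (2859 bp), UBL4A (2954 bp), the ribosomal protein gene RPL7A (3213 bp) and NFKBIA (3239 bp), the inhibitor of NF-kappaB, completed the shortest 10. The widest were SORCS2 (550290 bp), a sorting receptor, and a row of 549721 bp at chr3:183852826-184402546 that joins 13 names from EIF2B5 and DVL3 to EIF4G1 and EPHB3. SYNE1 (516118 bp), the nuclear envelope protein nesprin, MAD1L1 (417450 bp) of the spindle checkpoint, DIP2C (415554 bp) and the transcription factor PRDM16 (369454 bp) came next. VPS13D (281976 bp), INPP5A (245656 bp) and the exchange factor VAV2 (230711 bp) were also among the widest 10. Within a row of several names, the list does not say which gene the signal came from. Among the genes named here, this holds for NHLRC4, CTSD, MCOLN1, ENO2, KMT2D and EIF4G1, among others.

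Listed genes had GC-rich exons. Their median exonic GC was 58.6% (58.2 to 59.1) against 48.6% over all protein-coding genes, and the gene body as a whole had 55.7% against 45.3%. Protein-coding genes were cut into 5 bins of nearly equal size by exonic GC. The share listed was 0.422% (17 of 4029) in bin 1, 0.918% in bin 2, 2.53% in bin 3, 6.35% in bin 4 and 12.2% (492 of 4028; Wilson interval 11.2 to 13.3) in bin 5. Bin 5 alone held 492 of the 905 listed genes, and the 95% Wilson intervals of bins 2 to 5 did not overlap. Wilson intervals here cover counting error over genes only, and neighbouring genes are not independent.

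The T98G small RNA list ran the other way over the same bins. Genes with at least 1 T98G small RNA exon were 14.8% of bin 1, 12.1% of bin 2, 8.81% of bin 3, 6.95% of bin 4 and 4.69% of bin 5. Their median exonic GC was 44.4%, and their median gene length of 65638 bp was above that of listed genes. So these 2 EZH2 lists from 1 cell line held genes of different composition. Among the 1906 genes of the small RNA list, the share that was also on the full-length list went from 2.01% (12 of 596) in bin 1 to 42.9% (81 of 189) in bin 5. The same held for genes of the U87MG small RNA list (5.17% to 53.3%) and of the siRNA table (0.288% to 31.6%), so the gradient was also present among genes that another list had called. The lists carry no expression level, so all shares are of annotated and not of expressed genes.

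**Figure D2:**
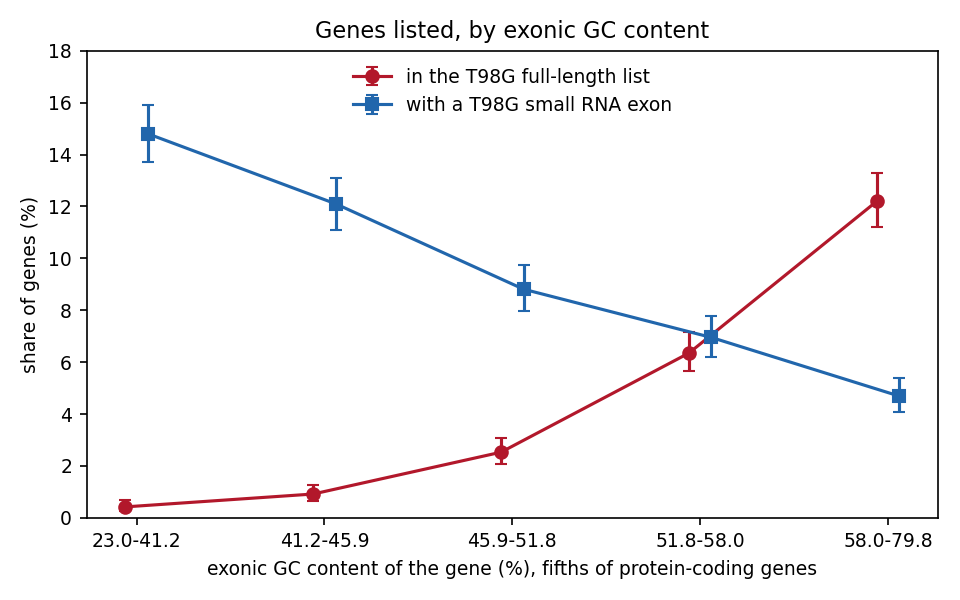
Share of protein-coding genes (%) on the full-length list (circles) and with a T98G small RNA exon (squares), in 5 bins of exonic GC content, with 95% Wilson intervals. The first goes from 0.422 to 12.2% and the second from 14.8 to 4.69%.

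Coding length and GC each went with the share listed. By coding length the share listed went from 1.37% in the shortest bin to 10.0% in the longest, while by whole gene length it was highest in bin 2 (7.07%) and lowest in the longest (2.09%). Genes in both the GC-richest and the longest coding bin were listed in 214 of 734 cases, or 29.2% (26.0 to 32.5). FASN (fatty acid synthase, 65.2% exonic GC, 7533 coding bases), PLEC (plectin, 67.2%, 13641) and HSPG2 (perlecan, 63.5%, 13173) are examples. The GC-poorest bin with the longest coding length had 1.26% listed.

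**Figure D3:**
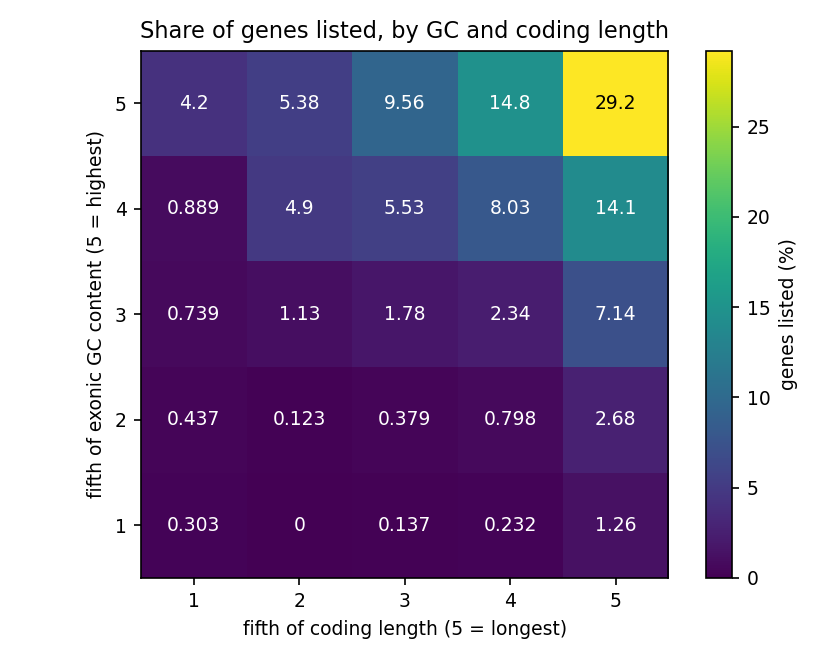
Share of protein-coding genes listed (%, number and colour) in each combination of 5 exonic GC bins and 5 coding length bins. The corner of highest GC and longest coding sequence has 29.2%, and the 5 cells of the lowest GC row have at most 1.26%.

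GC-poor members were few. The 17 listed genes of bin 1 included IVNS1ABP, HEATR1, SF3B1, CLK1, CTNNB1, KIAA1109, PLRG1, TTC37, IKBKAP, ATM and KNTC1, all from rows of 1 name. SF3B1, PLRG1 and CLK1 act in splicing, CTNNB1 is beta-catenin, and HEATR1 works in ribosome production. Of the 17, 12 (70.6%; 46.9 to 86.7) also held a T98G small RNA exon, against 14.6% of unlisted genes of the bin. SF3B1 (38.9% exonic GC) had 4 such exons and ATM (38.6%) had 6.

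The share listed differed between chromosomes. Chromosome 22 had the highest share of its protein-coding genes listed (44 of 450, 9.78%), then chromosomes 16 (78 of 861, 9.06%), 17 (102 of 1189, 8.58%) and 21 (16 of 229, 6.99%). The lowest shares were on chromosomes 18 (1.50%), 13 (1.55%) and 5 (1.58%). The Wilson intervals of chromosomes 22, 16 and 17 overlapped one another, as did those of 18, 13 and 5, while none of the first 3 overlapped any of the last 3. Over 23 chromosomes, with Y left out, the share listed and the median exonic GC of a chromosome's genes had Pearson's r of 0.79 and Spearman's rho of 0.78; chromosomes differ in gene number, and this is a description.

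**Figure D4:**
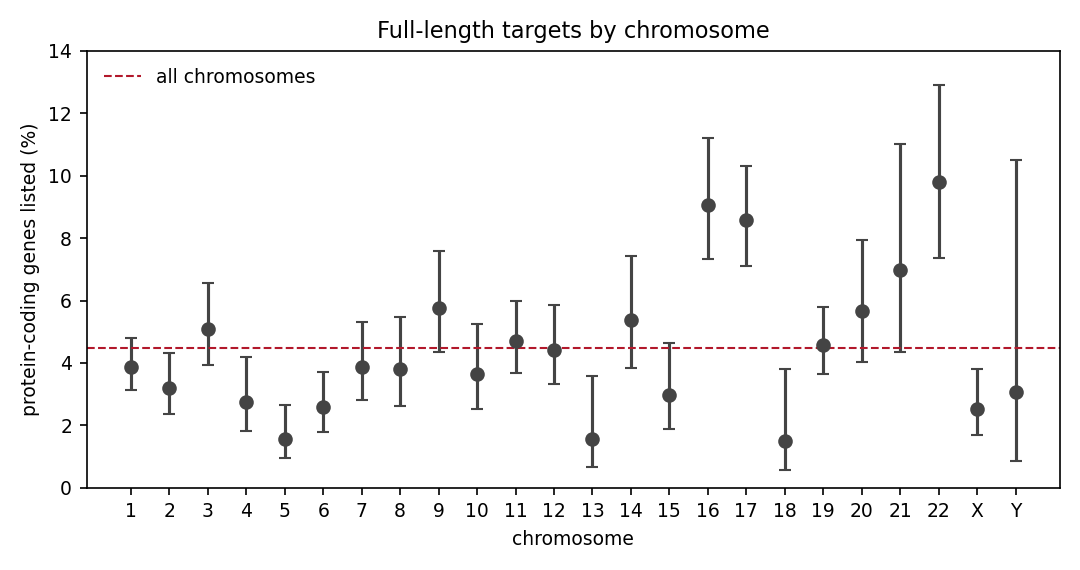
Protein-coding genes listed (%) on each chromosome with 95% Wilson intervals; the dashed line is the 4.49% of all chromosomes. Chromosomes 22, 16 and 17 lie above it and chromosomes 18, 13 and 5 below it with their whole intervals.

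Chromosome 19 stood apart from this order, with 4.59% listed (68 of 1480) at the highest median exonic GC (57.8%). Its zinc finger genes, which are GC-poorer (median 43.2%), had 1 of 258 listed (0.388%), and its other genes 67 of 1222 (5.48%). The X chromosome had 2.53% listed. PPP2R3B, in the region that X and Y share, is listed on both, so the 2 rows cannot be told apart. Genes within 5 Mb of a chromosome end were listed in 13.3% of cases (339 of 2540) against 3.21% farther in. Within GC bin 5 the figures were 20.5% and 8.51%, although the genes near the ends were still the GC-richer ones (median 63.2 against 60.8%).

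Listed genes often neighboured each other. Of the 905 listed genes, 268 (29.6%) had a listed gene as the next protein-coding neighbour, a count that includes genes named in the same row. In 187 (20.7%) the listed neighbour was in another row, and 7.24% of unlisted genes had a listed neighbour. By row, 395 members (47.9%) fell into 138 groups with gaps under 100 kb. The count was 150 with gaps under 10 kb and 674 under 1 Mb. No matching share over all genes was computed, so no excess is read from it. The group with the most rows, chr16:577717-1031318, held 10 rows from CAPN15, WDR90, JMJD8 and FBXL16 to CHTF18 and LMF1. Groups of 9 lay at chr9:138898383-139440314 (SEC16A, INPP5E and NOTCH1 among them), chr17:79801035-80056208 (P4HB, ALYREF, SIRT7, FASN) and chr19:867962-1479555 (ARID3A, ABCA7, STK11). No rows overlapped on the same strand. There were 10 overlapping pairs on opposite strands, such as GLIS2 with the CORO7 row (8049 bp shared) and RNF123 with AMIGO3 and GMPPB (4696 bp). Whether reads were counted by strand is not stated for the list, so such partners cannot be told apart.

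By function, lysosome and extracellular matrix genes were listed well above the share of all genes. Lysosome genes had 11 of 50 listed (22%; Wilson interval 12.8 to 35.2): the proteases CTSA, CTSD, CTSF and CTSL, the hydrolases GAA, GALNS and IDUA, the sphingolipid activator PSAP, GRN, the channel MCOLN1 and the sorting receptor IGF2R. Collagens, laminins and other matrix proteins had 22 of 140 (15.7%; 10.6 to 22.6). Other collagens (COL1A2, COL5A1, COL7A1, COL12A1, COL18A1), 3 of 5 collagen VI chains (COL6A1, COL6A2, COL6A3), the laminins LAMB1 and LAMB2, fibronectin (FN1), tenascin (TNC), thrombospondins (THBS1, THBS3) and collagen-processing enzymes and chaperones (LEPRE1, PLOD3, SERPINH1) were among them. The matrix members spanned a wide range of exonic GC. The lowest, COL12A1, LAMB1, COL1A2, FN1 and THBS1, lay between 43.2 and 45.7%, the highest, COL6A1, COL6A2, COL7A1, COL18A1 and HSPG2, between 63.5 and 66.8%, and the rest between these.

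The receptor kinase, glycolysis and cell cycle lists had intervals wholly above the share of all genes. Receptor kinases had 8 of 54 (14.8%), among them ERBB2, AXL, FGFR1, FGFR3, DDR1 and EPHB4. All 6 glycolytic members (ALDOA, ENO1, ENO2, PFKL, PFKM, PFKP) of a 33-gene glycolysis and hypoxia list (18.2%) code for enzymes of the pathway, and these include every phosphofructokinase subunit. Cell cycle genes had 8 of 64 (12.5%): CCND1, CCNF, CDC20, CDC25B and the helicase subunits MCM2, MCM4, MCM5 and MCM7. Symbol roots with 3 or more listed members numbered 37, and those complete on the list were CELSR (3 of 3, planar polarity cadherins), DVL (3 of 3, Wnt signal transducers; DVL3 lies in the row of 13 names) and PLXNB (3 of 3, semaphorin receptors; PLXNB3 shares a row with SRPK3). The 3 filamins, actin crosslinkers, were also all listed. Such complete families were picked out after the list was read, so their completeness is a description.

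Genes that build and translate RNA had a place too. Translation factors and aminoacyl-tRNA synthetases had 13 of 108 (12%; 7.17 to 19.5), with EEF2, EIF3B, EIF4A3 and EIF4G1 and the synthetases AARS, AARS2, CARS, IARS, MARS, QARS and VARS. RNA helicases and splicing factors had 12 of 190 (6.32%), including PRPF8, SNRNP200, SF3B1 and SF3B3, and their interval of 3.65 to 10.7 holds the 4.49% of all genes. Ribosomal protein genes had 1 of 86 (RPL7A, 1.16%), and their interval of 0.206 to 6.3 also holds the 4.49% of all genes. Motor proteins, actins, tubulins and their partners had 16 of 164 (9.76%), such as DYNC1H1, PLEC, SPTAN1 and KIF1C, and 12 of the 16 also held a T98G small RNA exon, against 23.2% of all listed genes. None of the 21 listed solute carriers or the 6 glycolytic genes did. Ubiquitin ligases and deubiquitinases had 26 of 379 (6.86%), among them UBR4, HUWE1, RNF213 and USP22.

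Chromatin regulators on the list were mostly from outside the Polycomb complexes. Histone methylases and demethylases had 7 of 37 (18.9%; 9.48 to 34.2): the H3K4 methylases KMT2B, KMT2D and SETD1B, the H3K9 methylase SETDB1 and the demethylases KDM4B, KDM5C and KDM6B, the last of which removes the mark that EZH2 places. Of 14 PRC2 genes, 1 was listed, EZH1 (chr17:40852293-40897071), the paralog of EZH2, while EZH2 itself was not. Among PRC1 genes CBX6 was listed. The interval of the small PRC2 list (1.27 to 31.5%) holds the background share and overlaps that of the methylases, so no order between them can be read.

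Other groups had no listed genes, a low share, or a share near that of all genes. None of 15 noncoding RNAs reported with PRC2 was on the list (interval up to 20.4%) and none of 5331 short RNA genes. Of 4286 long noncoding RNA symbols none was listed, and with older synonyms 6 of 4769. A synonym of that form does not make a gene noncoding, and all 905 listed genes are protein-coding. Whether noncoding genes could enter the list is not stated. Their absence thus does not show which noncoding RNAs EZH2 binds, and the interval above does not cover this. Genes with a zinc finger symbol (ZNF, ZSCAN, ZKSCAN or ZFP) had 6 of 558 (1.08%, 0.494 to 2.33): ZFP41, ZNF469, ZNF512B, ZNF598, ZNF646 and ZNF787. With older synonyms the count was 18 of 721 (2.50%). Genes with a symbol of cytokine, chemokine or growth factor form had 4 of 173 (BMP1, PDGFA, VEGFB and WNT9A, 2.31%, 0.903 to 5.79). This group and the zinc finger group were drawn by symbol, so membership does not give a gene's function. Of olfactory receptors 0 of 415 and of keratin genes 0 of 152 were listed. Of 21 glial and glioblastoma lineage genes NOTCH1 was listed (4.76%, 0.846 to 22.7). Of 31 immediate early genes JUN and FOSL2 were listed (6.45%, 1.79 to 20.7). Respiratory chain and mitochondrial ribosome genes (7 of 183, 3.83%) and solute carriers (21 of 385, 5.45%) likewise had intervals that hold the share of all genes.

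**Figure D5:**
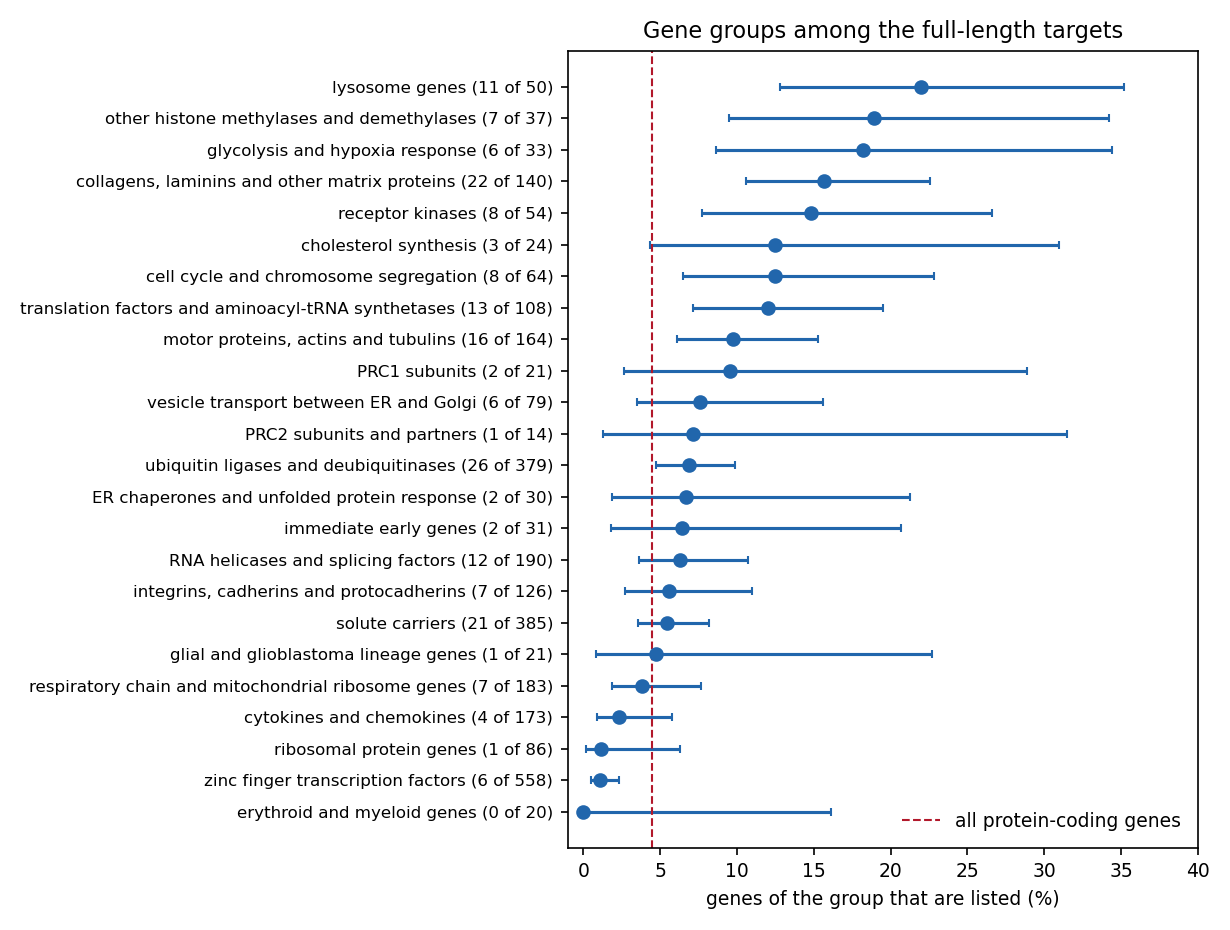
Share of each gene group that is listed (%), with 95% Wilson intervals and counts; the dashed line is the 4.49% of all protein-coding genes. Lysosome genes have the highest share (22%), and zinc finger genes (1.08%) and erythroid genes (0 of 20) lie at the bottom.

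Some names stand for sequences with close copies in the genome, which read mapping could split or share. These include NBPF9, NBPF14 and NBPF16, the NPIP genes, TBC1D3C, TBC1D3F, TBC1D3G and TBC1D3H, and HSPA1B. Their presence on the list is uncertain.

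In sequence, guanine tracts were denser in listed genes over all exons, but not within every GC bin. The tract defined above occurred 0.261 times per kb of joined exons on the RNA strand of listed genes and 0.125 times over all protein-coding genes. It was found in 73.7% of listed genes and 37.0% of all, listed genes also having longer exons. On the opposite strand the density was higher in both (0.307 and 0.156 per kb). Within GC bin 5 the RNA strand of listed genes had 0.407 and that of unlisted genes 0.384 matches per kb, and in bin 4 0.209 and 0.197. The order was the opposite in bin 3 (0.0748 and 0.0936), in bin 2 (0.0338 and 0.0513) and in the coding sequence of bin 5 (0.136 and 0.155). NHLRC4 (3.34 per kb, in a row with PIGQ), DVL1 (2.06), COL6A1 (1.99), TSPAN4 (1.88) and FBXL16 (1.77) had the highest densities among listed genes. COL6A1 had 5 of its 11 matches in coding sequence. Exons were joined before counting, so a counted match can span a junction. The COL6A1 matches printed above are those in coding sequence that span none. A match is a pattern of letters and shows neither folding nor binding.

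AGATCG, searched on both strands of joined exons, occurred 0.119 times per kb on the RNA strand of listed genes and 0.0911 times over all genes, and was found in 51.4% and 34% of genes. On the opposite strand the densities were 0.0654 and 0.0685. On the RNA strand they were 0.131 in listed and 0.123 in unlisted genes of GC bin 5, and 0.0945 and 0.0998 in bin 3. Promoters of listed genes were more often CpG-rich: 75.8% of 744 RefSeq windows, 250 bases before to 50 after the start (GRCh38.p14), had at least 60% GC and an observed over expected CpG ratio of at least 0.6, against 52.7% of 15341 windows in all. The other listed genes had no window in the table used, among them COL6A1. Genes with a T98G small RNA exon had 71.0%, so this feature was close in both T98G lists while exonic GC was not.

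Members often held small RNA exons. On the same strand, 205 of 824 members (24.9%; 22 to 27.9) had at least 1 exon of the T98G small RNA list, which 9.45% of all protein-coding genes have. For U87MG the count was 85 (10.3%, against 2.83%) and for K562 43 (5.22%, against 1.81%). No exon of any line lay in 587 members, and 19 had exons in all 3 lines. Among these were UBR4, SNRNP200, SF3B1, MCM7, AGAP3, IARS, DDB1, GANAB, NXF1, ATM, GCN1L1, SBNO1, DYNC1H1, RNF213, MCM3AP, ZC3H7B, HUWE1 and FLNA. NXF1 is the main mRNA export receptor, DDB1 a ubiquitin ligase adaptor and HUWE1 a ubiquitin ligase. COL12A1 and UBR4 had the most T98G exons (7 each), followed by ATM (6), DYNC1H1 and SMG1 (5 each).

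The overlap was also present within bins of composition and of length. In GC bin 5, 16.5% of listed genes (81 of 492; 13.4 to 20.0) and 3.05% of unlisted genes (2.54 to 3.67) held a T98G exon, and in each of the other 4 GC bins the listed share was also the higher one with intervals apart. In the bin of longest coding sequence the shares were 36.9% (32.3 to 41.7) and 22% (20.7 to 23.4). In coding length bins 2 and 3 the intervals overlapped (6.52 against 3.99%, and 10.1 against 6.93%). Both lists start from EZH2 immunoprecipitates of T98G cells, and neither carries expression levels.

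The small RNA exons inside members were GC-richer than the rest of that list and GC-poorer than their own genes. The 310 such exons had a median GC of 52.9% against 43.3% for the other 2263, and 200 of 288 (69.4%) had a lower GC than the coding sequence of their gene. AGAT started 11 to 15 bases downstream of 26.2% of 301 member peaks and 25.7% of 2162 other peaks, and 20 bases farther on at 2.66 and 3.52%. The longer AGATCG was at 8.31% of member peaks (5.69 to 12) and 4.07% of others (3.32 to 4.99). The windows of ATM, CAD, HTT, TRAF7 and AMPD2 printed above are of this kind. In the U87MG list of retained introns next to EZH2 exons, which has 43 rows, 6 distinct introns lay in members. They were those of CAMTA2, HEATR5B, IFT172, NUP188, SMG1 and UPF1, the last 2 partners in nonsense-mediated decay. Each of these members also held a U87MG small RNA exon, as 10.3% of members and 2.83% of all protein-coding genes do. Nearness to such exons defines the intron list, so this count is not independent of that overlap.

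In U87MG cells treated with siRNA against EZH2, 111 genes of the 824 members were in the authors' deposited table of 1342 changed genes. The annotation holds 20163 protein-coding genes, and the number tested in U87MG is not known, so no excess is read from this count. Of these 111 in the authors' deposited table, 94 (84.7%, interval 76.8 to 90.2) were lower under siEZH2 than under siGFP, against 50.7% of the whole table. Of the members in the authors' deposited table, the lowest were THBS1 (log2 fold change -1.54), PDGFA (-1.45), ABCA7 (-1.32), GLIS2 (-1.24) and FLNC (-1.10), and then AMOTL2 (-1.09), CCND1 (-1.06), UBR4, FLJ27365 and DNAJC5 (-1.05 each). The highest members in the authors' deposited table were MCF2L (1.85), DLL1 (1.74), CTSL (1.41), PTPRS (1.24) and SLC4A3 (1.16), then the transcription factor SOX4 (1.14), RAB3IL1 (0.87), ALG12 (0.83) and IVNS1ABP (0.72). Thrombospondin 1 and the growth factor PDGFA act outside the cell, as does the Notch ligand DLL1 at its surface. By GC bin of the authors' deposited table, 7 of 9 members (77.8%) and 40.7% of other genes were lower in bin 2, 87.5 and 44% in bin 3, 75.9 and 47% in bin 4, and 90.9 and 65.5% in bin 5, where 50 of 55 members and 78 of 119 others were lower. The 1 member of bin 1 was higher. The table is from another line than the list, 2 libraries stand behind each arm, and its direction was read from its name. The treatment label of 1 siEZH2 library names a different gene, and its title was followed.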

How the data were processed

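The labels describe 26 libraries in 15 groups, and 6 deposited lists were read. The members and gene lists were chosen with earlier results of these data known. Per the labels' protocols, the authors trimmed adapters with cutadapt, aligned iCLIP reads to hg19 with Bowtie2 and long RNA reads with Tophat, assigned reads to genes by featureCounts and took EZH2-enriched genes from DESeq2; the submitters' processing notes also name CASAVA 1.8. Values of the siRNA table are log2 fold changes as deposited, siEZH2 over siGFP, and its name gives an adjusted p of 0.05. The retained intron list has a deposited score per intron of unstated scale, which was not used. The lists had 0 columns of values for single libraries and none was left unassigned.

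Names were matched by symbol, then by RefSeq synonym, to a GENCODE gene overlapping on the same strand, and overlap meant 1 shared base. Exonic GC, lengths and motifs were computed from the hg19 reference. GC and length bins, families, distances to chromosome ends, small RNA peaks inside members and the siRNA split by GC were added after the gene names had been read. The named genes are the 10 longest and 10 shortest rows, the widest rows of several names, members with small RNA exons in all 3 lines or most T98G exons, the 10 largest siRNA changes each way, and gene list members; other examples were chosen after their values were seen. A few members that the rule names are not reported here. Motif counts were tested on 200 simulated sequences, and all planted motifs were recovered. The computation used Python 3.11.15 with numpy 2.4.6 and scipy 1.17.1. No test over samples was possible.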

Additional observations from a re-analysis of the deposited data

How the results depend on the processing

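Of 66 alternative values, 55 stayed close to the main value. The median length was 21076 bp when taken from annotated genes instead of row widths. For annotated genes of rows with 1 name it was 24057 bp, a value not among the 66. Members lower in the authors' deposited siRNA table were 16 of 23 at an absolute log2 fold change of at least 1 (69.6%, against 26.1% of the whole table at that size; 94 of 111 at any size). Members in groups numbered 150 with gaps under 10 kb and 674 under 1 Mb. CpG-rich promoters were 70.6% at a ratio of at least 0.75 and GC of at least 55%. Guanine tracts per kb were 0.552 with spacers of 1 to 12 bases and 0.0923 in coding sequence only, AGATCG 0.184 in coding sequence, and median GC 60.8% in coding sequence. Including older synonyms, zinc finger genes listed were 18 of 721, and genes with a symbol or synonym of long noncoding form were 6 of 4769. By rows per Mb, chromosomes 17, 19, 16 and 22 led. Those of the 66 values that came from rows of 1 gene name stayed close. This setting was chosen after seeing the data except for the median width (23221 bp). The protein segment analysis was not run. No paired analysis was possible because the lists hold no values per library and the results come from no test. With no counts, precision by depth is unknown.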
